A study of Homo sapiens with 3 samples.

Results

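Retinoic acid is made from vitamin A, and the 9 genes described here encode proteins that take up its precursor, make it, bind it and break it down. They are STRA6, CRABP1, CRABP2, DHRS3, ALDH1A1, ALDH1A2, ALDH1A3, CYP26A1 and CYP26B1. They were chosen by gene symbol: a row of the deposited table belongs to the set if its Ensembl identifier carries one of these symbols in GENCODE release 29. All 9 were found among the 60660 genes of the table. The cells were SH-SY5Y, a neuroblastoma line of human origin that was subcloned from the line SK-N-SH, and stranded mRNA libraries were prepared from 3 separate culture flasks at about 60% confluency. The cells grew in medium with 10% fetal bovine serum, and the labels name no treatment, no genetic change and no second cell line, so all 3 libraries form 1 group. Values are FPKM, which scales fragments to transcript length and to the mapped fragments of the library, so levels can be compared between genes of different length. Each error is the SD of 3 libraries (n = 3). The SE and p-values of limma draw the variance of each gene toward that of all genes tested. They therefore do not rest on the spread of that gene between flasks alone. All p-values concern flasks of 1 line only.

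Cells take up retinol through the membrane receptor STRA6 and hold it on cellular binding proteins. Retinol is oxidised reversibly to retinal, and aldehyde dehydrogenases of the ALDH1A family turn retinal irreversibly into retinoic acid. CRABP proteins carry the acid in the cytosol, nuclear receptors of the RAR and RXR families answer to it by binding pairs of short repeats in DNA, and CYP26 enzymes oxidise it for removal. Retinoic acid makes SH-SY5Y and other neuroblastoma cells leave the cell cycle and extend neurites, and an isomer of it is used in the treatment of neuroblastoma.

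Genes of retinoic acid breakdown and reception are themselves classical targets of the acid, so their promoters are shown where they hold such a repeat. Windows from 250 bases before to 50 bases after each start were taken from RefSeq on GRCh38.p14, which gave 17 windows for the 9 members. Both strands were searched for the 6-letter motif AGGTCA, where the first letter could also be G and the third could also be T, in direct repeats spaced by 1, 2 or 5 bases. Such a repeat stood in 91 of 35116 windows of all genes (0.259%), and one with a spacing of 5 in 31 windows (0.0883%). Among the members' windows 1 held a repeat, at a start of the breakdown gene CYP26A1. The windows of the receptor genes RARA, RARB and RARG, which are not members, were searched as well. Only RARB held a repeat there, in the first of its 4 windows. The repeats of CYP26A1 and RARB both have a spacing of 5 and are shown 5′ to 3′ with the 2 motifs in capitals.
CYP26A1: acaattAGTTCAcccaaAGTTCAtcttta
RARB: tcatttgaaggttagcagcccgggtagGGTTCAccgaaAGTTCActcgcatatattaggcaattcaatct
The CYP26A1 stretch is the minus strand of chr10:93073797-93073825, opposite to the gene, 68 to 96 bases before the start at 93073893, where GENCODE also annotates an untranslated exon of a transcript that starts further upstream. The RARB stretch is the plus strand of chr3:25428183-25428252, the strand of the gene, 11 to 80 bases before the start at 25428263, outside annotated exons. Over the 17 bases of the repeat 15 were identical, and the differences were A1G and C9G, counted from 1 at the first base of the first motif, with the CYP26A1 base first. A match is a description of letters and not a measured binding site.

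The 9 genes fell into a high and a low set with nothing between 0.448 and 8.91 FPKM in any library. Against a fixed level of 1 FPKM, 4 members were called above (STRA6, CRABP1, CRABP2 and ALDH1A3) and 4 below (ALDH1A2, DHRS3, CYP26A1 and CYP26B1), with limma and a Benjamini-Hochberg adjusted p under 0.05 over all genes. ALDH1A1 was listed at 0 in all 3 libraries, where a 0 may stand for few reads or for an estimate that failed, and was not tested. Over all 31736 genes tested 45.5% were called above and 43.7% below, and over the 16750 protein-coding genes tested 70.6% and 24.6%. All 9 members are protein-coding genes. At a level of 5 FPKM the same count, 4, was called above, beside 32.9% of all genes and 56.6% of protein-coding genes tested. The median of the 9 members, with ALDH1A1 at 0, was 0.337 FPKM, beside 5.399 over all 19680 protein-coding genes with those at 0 included.

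**Figure D1:**
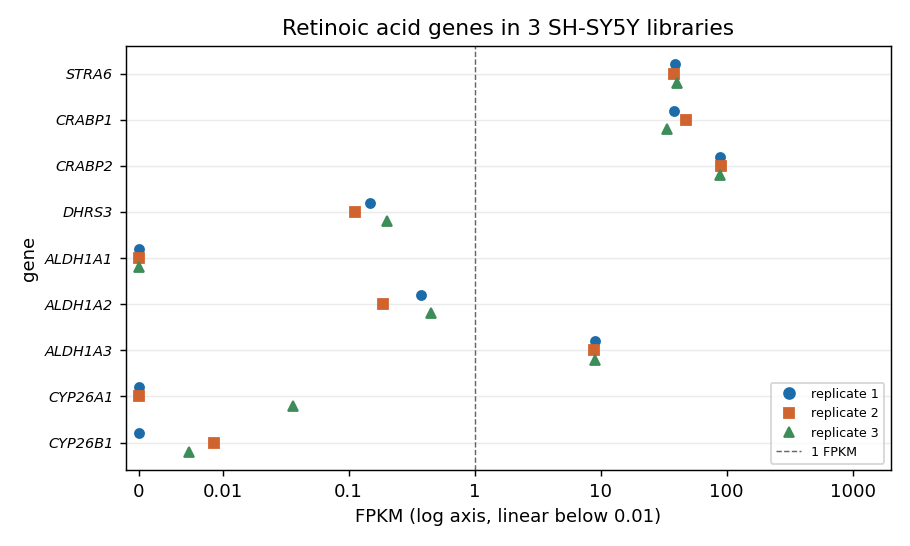
FPKM of the 9 genes (horizontal, log axis that is linear below 0.01) in each of the 3 SH-SY5Y libraries (1 symbol per replicate), with the level of 1 FPKM dashed. STRA6, CRABP1, CRABP2 and ALDH1A3 lie to the right of the level in every library, and the other 5 genes lie to the left of it, with ALDH1A1 at 0 in all 3.

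Uptake and binding were the high part of the set. CRABP2, which delivers retinoic acid to nuclear receptors, was the highest member and had 88.6, 90.1 and 88.7 FPKM in replicates 1, 2 and 3 (mean 89.1 ± 0.81). These values are nearly equal in the 3 flasks. It lay above 93.5% of 19680 protein-coding genes, with a log2 of 6.34 over the level (SE 0.065, limma adjusted p = 2.985e-05). CRABP1, the second cytosolic carrier of the acid, had 38.3, 47.6 and 33.5 FPKM (mean 39.8 ± 7.202), highest in replicate 2 and lowest in replicate 3. Its log2 over the level was 5.17 (SE 0.13, limma adjusted p = 6.321e-05).

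STRA6, the cell-surface receptor that imports retinol from its carrier in serum, had 39.2, 38.5 and 40.7 FPKM (mean 39.4 ± 1.12). Its log2 over the level was also 5.17 (SE 0.067, limma adjusted p = 2.985e-05). Estimated from the depth of each library and the length of the principal transcript, these values correspond to about 2256, 2920 and 4745 reads for STRA6, and to about 1595, 2138 and 3237 reads for CRABP2. Counting error is therefore small for both genes beside the differences between them.

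STRA6 (chromosome 15, 74179466 to 74212267, minus strand) shares exon sequence with CCDC33 of the opposite strand, at 3.05 ± 0.271 FPKM. CRABP2 (chromosome 1, 156699606 to 156705816, minus strand) is overlapped on the other strand by AL590666.4. The annotated exons of that locus do not meet those of CRABP2, and it has no value in these data. CRABP1 (chromosome 15, 78340324 to 78348230, plus strand) overlaps AC011270.2 on the other strand, a locus at 0.00333 FPKM. Whether the counting used strand is not stated in the labels, so reads of STRA6 and CCDC33 cannot be told apart where they overlap.

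Of the 3 retinal dehydrogenase genes, 1 held most of the RNA measured for the family. Synthesis itself was not measured. ALDH1A3 had 8.98, 8.91 and 9.04 FPKM (mean 8.98 ± 0.0685), and its 3 values differed by a ratio of 1.02 between the highest and the lowest. Its log2 over the level was 3.04 (SE 0.065, limma adjusted p = 4.501e-05). ALDH1A2, the main enzyme of the early embryo, had 0.373, 0.189 and 0.448 FPKM (mean 0.337 ± 0.133), lowest in replicate 2, and was called below with a log2 of -1.38 (SE 0.23, limma adjusted p = 0.008794). At a level of 0.5 FPKM that call was lost (limma adjusted p = 0.117, where the 11 alternatives ranged from 0.000564 to 0.117). ALDH1A1, an enzyme of adult tissues that is also used as a stem cell marker, was listed at 0 in each library, where 3 reads on its principal transcript correspond to 0.0728, 0.0552 and 0.0359 FPKM.

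ALDH1A3 thus held 96.0%, 97.9% and 95.3% of the summed FPKM of the 3 genes in replicates 1, 2 and 3, and ALDH1A2 the rest. The within-library log2 difference of ALDH1A3 over ALDH1A2 was 4.43 ± 0.47, a ratio of means of 26.7, in 3 of 3 libraries. ALDH1A3 (chromosome 15, 100877714 to 100916626, plus strand) shares exon sequence with AC015712.2 on the other strand at 3.54 ± 0.316 FPKM, so part of its value is uncertain in the way described for STRA6. ALDH1A2 (chromosome 15, 57953424 to 58497866, minus strand) spans several other loci, of which LIPC at 0.042 FPKM and LIPC-AS1 at 0.0267 FPKM were the only ones with a value above 0, and neither meets its exons. ALDH1A1 lies on chromosome 9 (72900662 to 73080442, minus strand). The RefSeq window of ALDH1A3 had 81.7% G and C and 46 CpG pairs, and that of ALDH1A1 had 40.3% and 7. The first window of ALDH1A2 had 74% and 41, and its second had 42.7% and 1. The medians over all windows were 58.7% and 14.

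**Figure D2:**
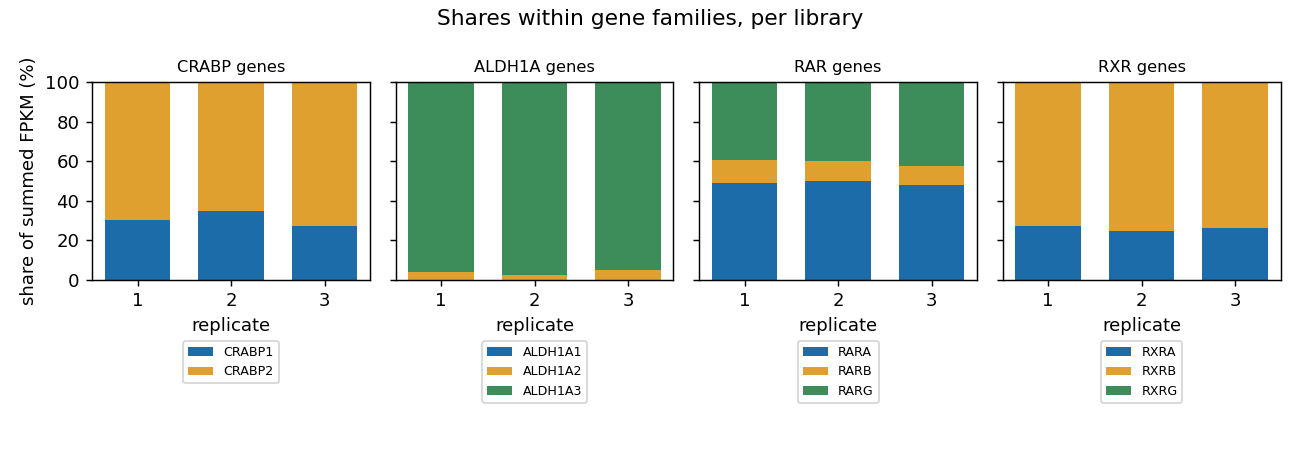
Share of summed FPKM (vertical, percent) held by each gene of 4 families in each of the 3 libraries (bars, replicates 1 to 3). ALDH1A3 fills 95.3% to 97.9% of the ALDH1A bars and CRABP2 65.4% to 72.6% of the CRABP bars, while RARA and RARG share most of the RAR bars.

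The brake on synthesis and the breakdown enzymes were at the low end. DHRS3, which reduces retinal back to retinol and so lowers the supply for synthesis, had 0.148, 0.112 and 0.201 FPKM (mean 0.154 ± 0.0448). It was called below with a log2 of -2.13 (SE 0.13, limma adjusted p = 0.0005729). The values correspond to about 4.9, 4.9 and 13.4 estimated reads, and all 3 lie above the 0.0913, 0.0692 and 0.045 FPKM that 3 reads give. DHRS3 lies on chromosome 1 (12567910 to 12617731, minus strand), and the 2 small RNA loci inside it, RNU6ATAC18P and MIR6730, were listed at 0.

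CYP26A1, the retinoic acid hydroxylase that retinoic acid itself induces in many cells, was listed at 0 in replicates 1 and 2 and at 0.036 FPKM in replicate 3. That value corresponds to about 3 estimated reads. CYP26B1, the hydroxylase of limb, gonad and parts of the brain, was listed at 0, 0.009 and 0.006 FPKM, or about 1.2 estimated reads in each of replicates 2 and 3. Both were called below 1 FPKM, with a log2 of -3.31 for CYP26A1 (SE 0.13, limma adjusted p = 0.0001805) and -3.39 for CYP26B1 (SE 0.071, limma adjusted p = 4.363e-05). These SE rest on values near 0, which the pseudocount of 0.1 draws together. With a pseudocount of 0.01 the SD of log2 values rose from 0.256 to 1.271 for CYP26A1 and from 0.063 to 0.479 for CYP26B1. The limma adjusted p was then 0.004956 and 0.0005053, and both calls stayed. CYP26A1 (chromosome 10, 93073475 to 93077890, plus strand) lies downstream of the third family gene CYP26C1, which was listed at 0 in all libraries. The locus AL358613.3 shares strand and exon sequence with CYP26A1 and has no value in these data. How reads of the shared sequence were assigned is therefore not known. CYP26B1 is on chromosome 2 (72129238 to 72148038, minus strand). At this depth no CYP26 gene was detected beyond about 3 estimated reads in any library. The start of CYP26A1 that holds the direct repeat printed above also has a TATAAA in the 50 bases before it, which 2.63% of all windows have.

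Ordered by mean level, the members ran from CRABP2 through CRABP1, STRA6, ALDH1A3, ALDH1A2, DHRS3 and CYP26A1 to CYP26B1, with ALDH1A1 at 0. Differences between neighbours were taken within each library on the scale log2(FPKM + 0.1) and tested with an exact two-sided sign-flip permutation test, whose smallest p for 3 libraries is 0.25. None of the 10 gene pairs compared can therefore pass the threshold. The order and the direction of each difference came from these same libraries. A difference in 3 of 3 libraries is thus a description and not independent support. CRABP2 exceeded CRABP1 by 1.18 ± 0.24, a ratio of means of 2.24, in 3 of 3 libraries (exact p = 0.25, 0.312 after Benjamini-Hochberg adjustment). STRA6 exceeded ALDH1A3 by 2.12 ± 0.03, ALDH1A2 exceeded DHRS3 by 0.75 ± 0.26 and DHRS3 exceeded CYP26A1 by 1.18 ± 0.12, each in 3 of 3 libraries with the same p. The pseudocount of 0.1 bears on the size of differences that involve low genes. With pseudocounts of 1 and 0.01, ALDH1A2 exceeded DHRS3 by 0.21 and 1.03, DHRS3 exceeded CYP26A1 by 0.19 and 3.26, and ALDH1A3 exceeded ALDH1A2 by 2.91 and 4.78. CRABP1 and STRA6 were neighbours that did not differ beyond their spread. CRABP1 was the lower in replicates 1 and 3 and the higher in replicate 2, and the mean log2 difference was -0.003 ± 0.295 (exact p = 1). CYP26A1 and CYP26B1 lay near or under the level of 3 reads and have no meaningful order.

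The flasks agreed to different degrees for different members. The SD of log2(FPKM + 0.1) over the 3 libraries was 0.011 for ALDH1A3 and 0.013 for CRABP2, where the median of protein-coding genes within 1.5-fold of their level was 0.115 and 0.079. STRA6 had 0.041 beside a median of 0.09. CRABP1 had 0.256 beside a median of 0.089, more than 96.2% of 2445 protein-coding genes of like level. These spreads depend on the scaling. In TPM, values rescaled to the same sum in every library, the SD was 0.054 for ALDH1A3 and 0.032 for CRABP2, beside medians of 0.125 and 0.101 for genes of like level. STRA6 then had 0.082 beside 0.106, and CRABP1 had 0.213 beside 0.106, more than 89.7% of genes of like level. With 3 libraries of 1 group these are descriptions without a test, and no genes were sought whose levels follow those of a member.

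**Figure D3:**
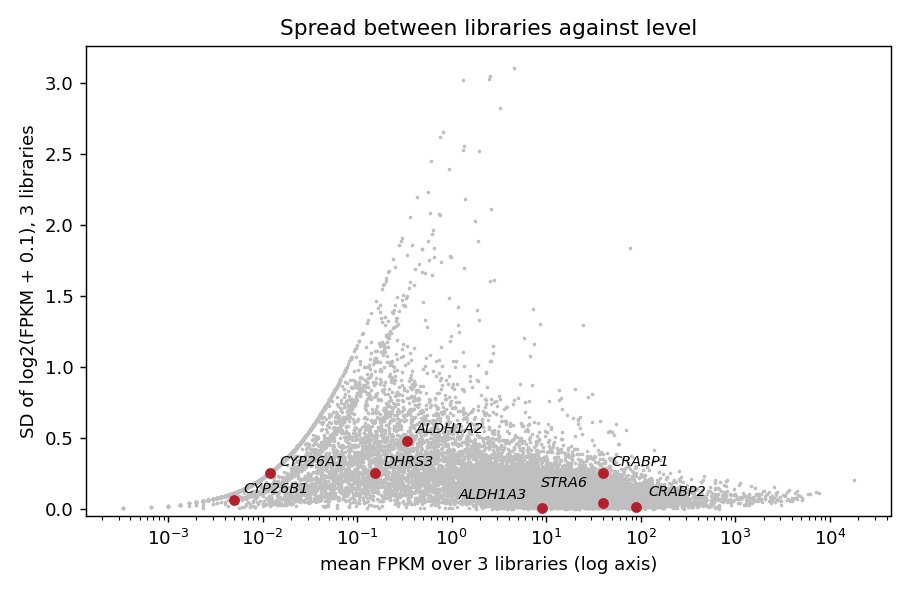
SD of log2(FPKM + 0.1) over the 3 libraries (vertical) against mean FPKM (horizontal, log axis) for protein-coding genes with a value above 0 (grey points) and the 8 members with one (red, named). CRABP1 lies near the upper edge of genes at its level, with an SD of 0.256, whereas STRA6, CRABP2 and ALDH1A3 lie below the median of genes at theirs.

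Of the 10 genes of retinol uptake and storage reported here 1 was called above 1 FPKM, the acyltransferase gene DGAT1 (21.5 ± 1.36). Of the 7 tested, another 3 were called below and 3 were neither, beside 70.6% above and 24.6% below over protein-coding genes tested. The other 3 were listed at 0 and not tested. LRAT, the main enzyme that stores retinol as esters, was called below at 0.013 ± 0.0147 FPKM. RBP4, the carrier of retinol in blood that STRA6 recognises, was called below at 0.0947 ± 0.118, and without replicate 2 that call was lost (limma adjusted p = 0.0586, where the 10 alternatives ranged from 0.001004 to 0.0586). The visual cycle genes RPE65 and RLBP1 and the carotene-cleaving enzyme gene BCO1 were listed at 0. RBP7 (1.35 ± 0.442 FPKM), RBP5 (0.911 ± 0.406) and BCO2 (0.872 ± 0.397) were called neither.

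Of the 18 genes for the exchange between retinol and retinal 7 were called above and 8 below. The other 3 were listed at 0 and not tested, so these counts stand over 15 genes. Over protein-coding genes tested the shares were 70.6% above and 24.6% below. ADH5, a widely expressed class III alcohol dehydrogenase whose main substrate is a glutathione adduct of formaldehyde, was highest at 81.6 ± 4.57 FPKM. RDH11 (33.3 ± 1.56) and RDH14 (24.2 ± 1.42), reductases that favour the direction from retinal to retinol, followed. RDH13, a mitochondrial relative, had 7.82, 23.3 and 12.4 FPKM (mean 14.5 ± 7.97), highest in replicate 2, an SD of log2 values above that of 99.9% of protein-coding genes of like level. DHRS4 stood at 4.37 ± 0.613 and RDH5 at 1.94 ± 0.438 FPKM. DHRS4 has closely related copies beside it, and ADH1A, ADH1B and ADH1C are closely similar to each other, so their values are uncertain.

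RDH10, the dehydrogenase that carries out most oxidation of retinol in embryos and forms a complex with DHRS3, was near the level. It had 1.56, 1.86 and 1.27 FPKM (mean 1.56 ± 0.296) and was called above with a log2 of 0.58 (SE 0.13, limma adjusted p = 0.02198). That call was lost after rescaling to TPM (limma adjusted p = 0.363), without replicate 1 (0.0883) and without replicate 2 (0.0715), where the 11 alternatives ranged from 0.001118 to 0.363. The lowest of these belongs to a level of 5 FPKM, where RDH10 was called below with a log2 of -1.63. The call of RDH5 was lost in TPM as well (limma adjusted p = 0.0675, from 0.001455 to 0.0675 over 11 alternatives). RDH10 exceeded DHRS3 by a log2 difference of 2.71 ± 0.51 in each of the 3 libraries, with a ratio of means of 10.2 (exact sign-flip p = 0.25, adjusted 0.312). With DHRS3 near the pseudocount, that difference was 1.15 with a pseudocount of 1 and 3.29 with 0.01.

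Among other genes that handle the acid, FABP5, a lipid carrier that can pass retinoic acid to PPARD, stood at 13.4 ± 1.01 FPKM and PPARD at 8.603 ± 0.825, both called above. ALDH8A1, a dehydrogenase with activity on 9-cis-retinal, had 0.021, 0.263 and 0.033 FPKM and was called below, with most of its value in replicate 2. FABP5 was thus lower than both CRABP genes in every library.

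Of the receptors that read the acid, RARA had 22.9, 24.7 and 21.9 FPKM (mean 23.2 ± 1.45), RARG 18.5, 19.9 and 19.2 (mean 19.2 ± 0.72) and RARB 5.42, 4.98 and 4.36 (mean 4.92 ± 0.531). The ranges of the 3 genes over the 3 libraries did not overlap. Of the partner genes, RXRB stood at 17.7 ± 1.67 and RXRA at 6.22 ± 0.469 FPKM, and RXRG was listed at 0. So 5 of the 6 receptor genes were called above 1 FPKM, beside 70.6% of protein-coding genes tested, and RXRG was not tested. RARA held 49.0% ± 0.823 of the summed FPKM of the 3 RAR genes, RARG 40.6% ± 1.41 and RARB 10.4% ± 1.04. RARA exceeded RARB by 2.22 ± 0.14 and RARG by 0.27 ± 0.07 (log2), each in 3 of 3 libraries (exact sign-flip p = 0.25, adjusted 0.312).

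Of 7 coregulator genes, which encode proteins that bind the receptors with or without ligand or partners of such proteins, 6 were called above. That stands beside 70.6% of protein-coding genes tested. The corepressor gene NCOR1 (44.1 ± 2.06 FPKM) and the genes of its complex partners HDAC3 (74.3 ± 3.25) and TBL1XR1 (59.5 ± 0.964) were higher than the coactivator genes NCOA2 (20.3 ± 1.62), NCOA1 (14.5 ± 0.48) and NCOA3 (10.9 ± 1.28), with no overlap in any library. NRIP1, a corepressor gene that retinoic acid induces, had 0, 0.014 and 0.009 FPKM and was called below, at about 3 estimated reads in replicates 2 and 3.

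Of 7 genes known as targets of retinoic acid in other cells, among them RARB, already counted with the receptors, 2 were called above 1 FPKM. Another 2 were called below, beside 70.6% above and 24.6% below over the protein-coding genes tested. The other 3 were listed at 0 and not tested (HOXB1, RARRES3 and STRA8). The 7 are a chosen list that leaves out other targets, such as CYP26A1 and NRIP1 described above, so the counts are not shares of all targets. The 2 called above were RARB, whose promoter repeat is printed above, and RARRES1, a gene named for its induction by retinoids. RARRES1 had 1.87, 10.4 and 5.13 FPKM, lowest in replicate 1 and highest in replicate 2, and its call was lost without replicate 2 (limma adjusted p = 0.101), without replicate 3 (0.111) and with no filter on low values (0.0757), where the 11 alternatives ranged from 0.01205 to 0.871. The transglutaminase gene TGM2 stood at 0.11 ± 0.0266 and CDX1 at 0.583 ± 0.104 FPKM, both below. The call of CDX1 was lost without replicate 2 (limma adjusted p = 0.0566, from 0.000185 to 0.233 over 11 alternatives). The labels name no added retinoic acid, so response was not measured here.

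**Figure D4:**
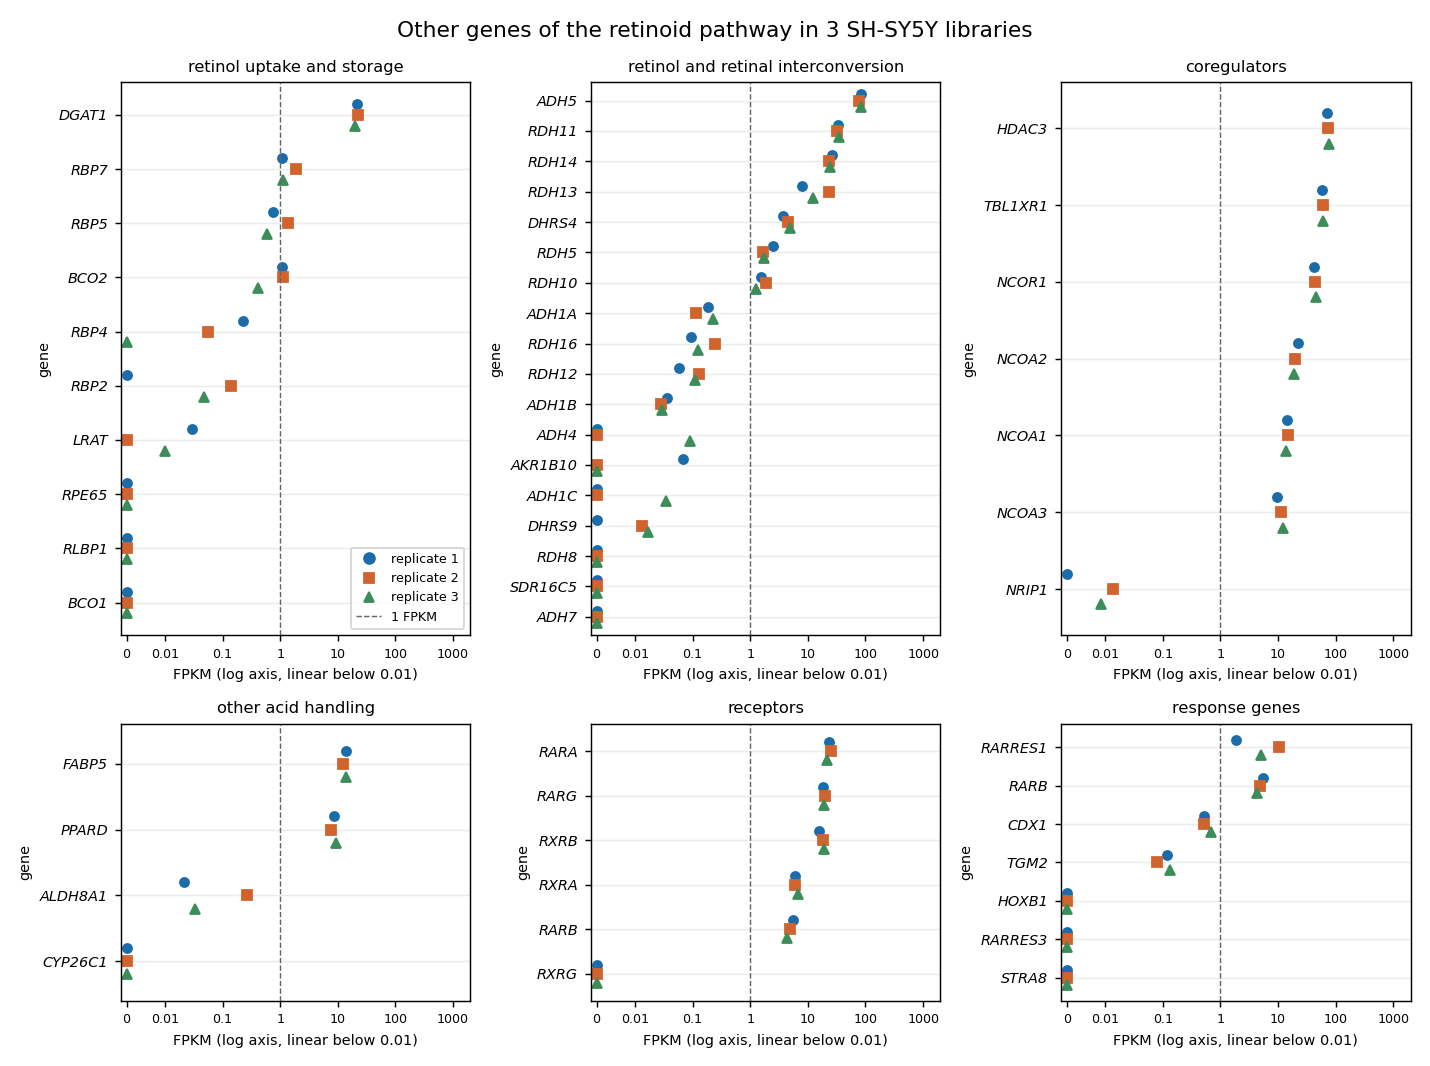
FPKM (horizontal, log axis that is linear below 0.01) of the other retinoid genes in each of the 3 libraries (1 symbol per replicate), by role, with the level of 1 FPKM dashed. Called above the level were 5 of 5 receptor genes tested, 6 of 7 coregulator genes and 1 of 7 uptake and storage genes. Of all protein-coding genes tested 70.6% were. Genes listed at 0 were not tested. CYP26C1 and 3 of 7 response genes lie at 0.

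On the genome, 4 of the 9 members lie on chromosome 15 (CRABP1, STRA6, ALDH1A2 and ALDH1A3), 2 on chromosome 1 (CRABP2 and DHRS3) and 1 each on chromosomes 2, 9 and 10. Of the 4 on chromosome 15, 3 were called above, where 70.6% of protein-coding genes tested were.

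The labelled cell type matched its markers. All 7 markers of noradrenergic neuroblastoma (PHOX2A, HAND2, GATA3, ISL1, DBH, CHGA and STMN2) were called above 1 FPKM, with means from 103 to 2405 FPKM. The share called above over protein-coding genes tested was 70.6%. Of 5 fibroblast markers 3 were called above, with summed levels of 20.9 to 28.9 FPKM per library. None of 4 Schwann cell and glial (sums 2.31 to 4.76), 4 epithelial (1.33 to 2.99), 4 immune (0.413 to 0.789) and 3 endothelial markers (0.036 to 0.106) was called above by limma, and KRT5, KRT14, CD3E and CDH5 were listed at 0. The part of cells with fibroblast markers in the members' levels was not tested. In bulk RNA a gene expressed in few cells cannot be told apart from one expressed weakly in all of them. Depth was estimated at about 21600000, 28500000 and 43800000 reads in replicates 1, 2 and 3 from the even steps of low FPKM values, and limits given as 3 reads cover counting error only.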

How the data were processed

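The authors deposited 1 table with FPKM values per gene and library. Cufflinks 2.2.1, TopHat2 2.1.1, FastQC 0.10.1, bcl2fastq and the build hg38 are named, per the submitters' processing notes; the annotation and any strand setting are not given in these sources. Per the labels' protocols, libraries were made from 500 ng of total RNA and read as 50-base single reads. Of 60660 identifiers 57046 matched GENCODE 29 (GRCh38); a shared name took the identifier with the highest mean (59152 names). In 28 genes, none of them a member, a value is missing and was left missing. Genes with a value above 0 were tested with limma 3.58.1 in R 4.3.3 on log2(FPKM + 0.1) against 1 FPKM (two-sided); the fit was tested on simulated data. This scale understates how far low genes lie from the level, and it also narrows their spread between libraries. Depth came from genes with 1 transcript of at least 600 bases: with a fragment length of 200 bases assumed, 97.2%, 97.2% and 96.9% of low values lay within 0.1 of a whole read, where chance gives 20%. Reads and floors per gene use the longest principal transcript and are estimates. Exact sign-flip tests, promoter searches and figures used Python 3.11.15 (numpy 2.4.6, pandas 2.3.3, matplotlib 3.10.9). Named genes are the members, any gene of the listed pathway and marker lists, and loci overlapping a member. Some pathway genes are not reported here. Members and lists were chosen with earlier results of these data known. Alternatives were other pseudocounts, scalings, levels and filters, and each library left out.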

Additional observations from a re-analysis of the deposited data

How the results depend on the processing

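Of 85 tests of single members under the alternatives, 84 kept their direction and side of the threshold, the exception being ALDH1A2 at a level of 0.5 FPKM. The members called above stayed at 4 in every alternative. Those called below fell to 2 with a filter at a mean of 0.1 FPKM, which leaves CYP26A1 and CYP26B1 out. They ranged from 3 to 4 with 1 library left out, were 3 at a level of 0.5 FPKM and rose to 5 with no filter. The filter at a mean of 0.1 FPKM gave 0 genes below for uptake and storage, 2 for interconversion and 0 for coregulators. With no filter, genes listed at 0 enter the test. Called below were then 6 uptake and storage genes, 11 of interconversion, 2 of other acid handling, 1 receptor and 5 response genes. In that setting 1 response gene was called above. At 5 FPKM 6 uptake and storage genes were called below, 4 interconversion genes above and 0 response genes above; at 0.5 FPKM 1 response gene was called below and 2 uptake and storage genes above. With 1 library left out, response genes called above ranged from 1 to 2 and those below from 1 to 2.

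The log2 difference of CRABP1 over STRA6 ranged from -0.16 to 0.14 with 1 library left out, and that of CYP26A1 over CYP26B1 from -0.062 to 0.18. Against a level of 5 FPKM the log2 values turned negative for RBP7 (-1.85), RDH5 (-1.34), RDH10 (-1.63), DHRS4 (-0.20), RARB (-0.028) and RARRES1 (-0.10), and against 0.5 FPKM positive for RBP5 (0.68), BCO2 (0.59) and CDX1 (0.18). With 1 library left out RBP5 ranged from -0.50 to 0.033 and BCO2 from -0.50 to 0.13. TPM lowers every gene by a log2 shift of -0.46 to -0.54 before the pseudocount, and RBP7 then stood at -0.092.

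No fit with the replicate number as a block was possible because the libraries form a single group. Values of CYP26A1 and CYP26B1 rest on at most about 3 estimated reads per library.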
